A study of Homo sapiens with 2 samples.

Results

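The mirtrons miR-877 and miR-1224 to miR-1229 with miR-1236 to miR-1238 were followed in small RNA libraries of K562/ADM and K562 cells, with 1 library of each. They were selected by their names: every row of the deposited table whose miR number belongs to 1 of 10 mirtron hairpins was kept, both strands included. This gave 11 of the 934 names of the table, from 8 of the 10 hairpins. For miR-1225 and miR-1238 no row was found, so they were not analysed here beyond their sequences. K562 is an established cell line from a chronic myelogenous leukemia. K562/ADM is a single adriamycin-resistant variant of it, adapted to rising doses of the drug and then kept in 1000 ng/mL of adriamycin (ADM), an anthracycline, while K562 was grown without it. The table is based on 6895193 reads in K562/ADM and 7677738 reads in K562. The 6 blood cell miRs used as a check of the cell type, such as miR-142-3p and miR-451, were all listed. Summed, they held 8.04% of the reads in K562/ADM and 5.41% in K562. Liver, muscle, neural and epithelial miRs together (9 of 10 listed) held 0.271% and 0.116%. Most of this was neural (miR-124 and miR-9), with 17884 reads in K562/ADM and 7977 in K562. Not every blood miR exceeded that: both strands of miR-223 together had 2982 reads in K562/ADM and 4754 in K562.

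Most miRs are cut out of a long primary transcript by the nuclease Drosha and its partner DGCR8, and the resulting hairpin is then trimmed by Dicer. A mirtron takes another route into the pathway: it is a whole short intron, which is released by the spliceosome, opened by the debranching enzyme and folded into a hairpin that Dicer can cut. The ends of its hairpin are therefore the splice sites of the intron, and its supply depends on the splicing of its host gene. For miR-1225 and miR-1228, production without splicing (as so-called simtrons) has also been described. How the hairpins were made was not measured in these libraries.

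The annotation gave each of the 10 hairpins as a complete intron of a protein-coding gene. In GENCODE v44 on GRCh37, both ends of all 10 hairpins coincided with the ends of the intron, at a distance of 0 nt, and the introns were 69 to 102 nt long. Of 405 other hairpins in the table that lie in an annotated intron, 1 spanned an intron of at most 200 nt in this way (MIR3620 in ARF1), and the median intron around them was 11323 nt. The intron that is miR-877 lies on chromosome 6 from 30552109 to 30552194 (plus strand) in ABCF1, an ATP-binding cassette protein without membrane spans that acts in translation. MiR-1226 is an intron on chromosome 3 from 47891045 to 47891119 (plus strand) in DHX30, an RNA helicase. MiR-1236 is an intron on chromosome 6 from 31924616 to 31924717 (minus strand) in NELFE, a subunit of the negative elongation factor of RNA polymerase. The other hosts were VWA5B2 for miR-1224, PKD1 (polycystin) for miR-1225, PLEKHJ1 for miR-1227, LRP1 (an endocytic receptor) for miR-1228, MGAT4B (a Golgi glycosyltransferase) for miR-1229, RPS6KA4 (a kinase of the MAP kinase pathway) for miR-1237 and ATG4D (an autophagy protease) for miR-1238.

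**Figure D1:**
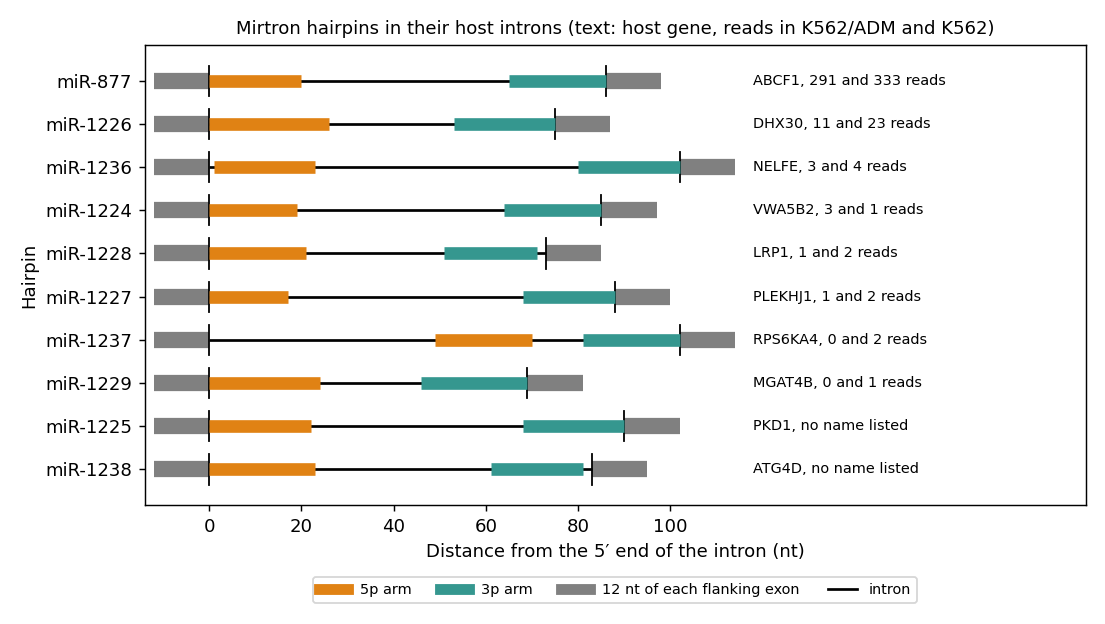
Each of the 10 mirtron hairpins (rows) drawn in its host intron, with the distance from the 5′ end of the intron in nt on the x axis. The black line is the intron, grey ends mark the start of the flanking exons, orange the 5p arm and green the 3p arm as given by RefSeq, and the text gives the host gene with the summed reads in K562/ADM and K562. The 3p arm reaches the end of the intron in 8 hairpins, and the 5p arm of miR-1237 lies in the middle of its hairpin.

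The sequences below show the feature by which a mirtron is recognised, namely an intron from end to end. They are the RefSeq hairpins (GRCh38.p14) of the 3 mirtrons with the most reads, written 5′ to 3′, and the capitals mark the splice site bases at both ends. The hairpin of each of the 10 members was identical to the sequence of its intron in GRCh37.
miR-877 hairpin: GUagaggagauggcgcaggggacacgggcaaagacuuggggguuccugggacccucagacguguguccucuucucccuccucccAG
miR-1226 hairpin: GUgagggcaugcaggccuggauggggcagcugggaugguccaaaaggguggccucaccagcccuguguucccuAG
miR-1236 hairpin: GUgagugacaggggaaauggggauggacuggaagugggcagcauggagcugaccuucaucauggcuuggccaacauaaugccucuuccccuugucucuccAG

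All 10 member hairpins began with GU and ended with AG, against 26 of 1550 other RefSeq hairpins (1.68%). This follows from their being introns and is no separate finding. They were rich in G and C, with a median of 69.0% (54.9% to 77.5%) against 51.8% in the other hairpins. The strands were unlike each other in composition. The 3p arms were made mostly of C and U (median 80.5%, range 63.6% to 90.5%), as the end of an intron with its pyrimidine tract is, against 56.5% in other 3p arms. The 5p arms held a median of 28.6% C or U, against 45.5% in other 5p arms.

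The mature strands for which reads could be compared are printed below with the seed, bases 2 to 8, in capitals, since the seed decides which messages a miR can pair with. The older names in the table carry no arm. By the naming of miRBase at that time miR-877 is the 5p arm, while miR-1226 and miR-1236 are the 3p arm, and the asterisk marks the other strand.
miR-877 (5p): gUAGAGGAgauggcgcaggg
miR-877* (3p): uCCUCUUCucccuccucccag
miR-1226 (3p): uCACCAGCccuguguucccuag
miR-1226* (5p): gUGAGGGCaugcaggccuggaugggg
miR-1236 (3p): cCUCUUCCccuugucucuccag
The 20 mature strands of the 10 hairpins have 20 distinct seeds, so the mirtrons form a group by their origin and not a seed family. For 18 of them no other RefSeq miR has the same seed. Six-base stretches are shared in a few cases: CUCUUC stands at bases 3 to 8 of miR-877* and at bases 2 to 7 of miR-1236, and UGGGUA at bases 2 to 7 of the 5p arms of miR-1225 and miR-1229.

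MiR-877 was by far the most abundant mirtron in both libraries. It had 281 reads in K562/ADM (exact 95% Poisson interval 249 to 316) and 314 reads in K562 (280 to 351), which is 40.8 and 40.9 RPM (reads per 1000000 reads of the table). It ranked 178th among the 815 names with reads in K562/ADM and 202nd among the 828 in K562. Its hairpin took 93.9% of all mirtron reads in K562/ADM (95% interval 90.6 to 96.3, Clopper-Pearson) and 90.5% in K562 (87.0 to 93.3). These and the following intervals cover counting error only. Reads copied by PCR are not independent molecules, so the intervals may be too narrow even for that. Since each cell line is represented by 1 library, no value has a replicate check, and any difference is one between these libraries.

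The other strand of the same intron, miR-877*, had 10 reads in K562/ADM and 19 reads in K562. MiR-1226, from DHX30, came next with both strands at similar levels. MiR-1226 had 5 reads in K562/ADM and 12 reads in K562, and miR-1226* had 6 reads in K562/ADM and 11 reads in K562. These 3 names thus had fewer reads in K562/ADM, although their Poisson intervals overlapped between the libraries.

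The remaining names were at the edge of detection. MiR-1236, from NELFE, had 3 reads in K562/ADM and 4 reads in K562. MiR-1224-5p, from VWA5B2, had 3 reads in K562/ADM and 1 read in K562. MiR-1227, from PLEKHJ1, had 1 read in K562/ADM and 2 reads in K562. None of these could be told apart between the libraries at this depth. For both strands of the LRP1 intron, 1 library was at 0: miR-1228 had 0 reads in K562/ADM and 2 reads in K562, and miR-1228* had 1 read in K562/ADM and 0 reads in K562. MiR-1237, from RPS6KA4, had 0 reads in K562/ADM and 2 reads in K562, and mir-1229*, from MGAT4B, had 0 reads in K562/ADM and 1 read in K562. No source used here gives the arm that the asterisk marks in a name spelled mir, so this read was assigned to neither arm. A count of 0 allows up to 3 reads, or 0.435 RPM in K562/ADM and 0.391 in K562, so that none of these names was shown to be absent from either line.

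**Figure D2:**
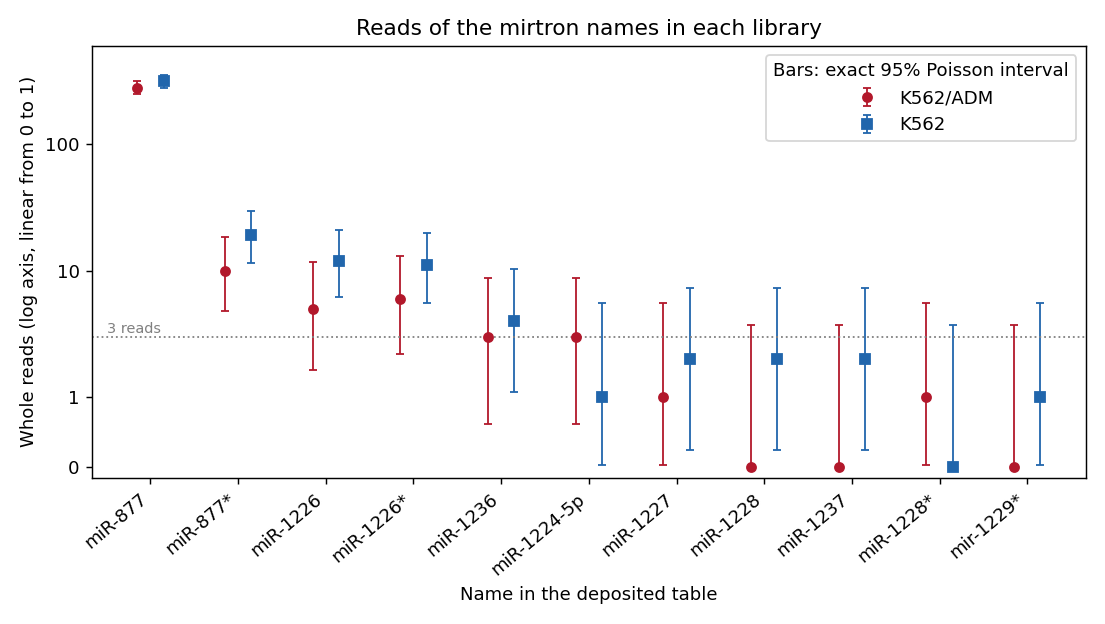
Whole reads (y axis, log scale above 1 and linear from 0 to 1) of the 11 mirtron names (x axis) in K562/ADM (red circles) and K562 (blue squares). Bars are exact 95% Poisson intervals and the dotted line marks 3 reads. MiR-877 stands at 281 and 314 reads, the next name at 10 and 19, and 6 names have at most 3 reads in each library.

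Of the 11 names, 8 had reads in K562/ADM and 10 in K562, and 7 had reads in both. Of all 934 names, 815 had reads in K562/ADM, 828 in K562 and 709 in both, so names with reads in 1 library alone were not particular to the mirtrons. The 8 and 10 names are 72.7% and 90.9% of the members listed, while 87.3% and 88.7% of all names had reads in these libraries. All 934 listed names had at least 1 read in either library. These shares therefore hold for names already detected, and strands without a row, such as those of miR-1225 and miR-1238, are not counted. Reads were found in K562/ADM alone for 1 name and in K562 alone for 3 names, each with at most 2 reads. The mirtrons were scarce compared with the table as a whole. Their median was 4 reads in both libraries together against 35 for all names, and 7 of 11 names (63.6%) had under 10 reads together, against 330 of 934 (35.3%). With at least 3 reads, 6 mirtron names were detected in K562/ADM and 5 in K562, and with at least 10 reads 2 in K562/ADM and 4 in K562, so that the direction of this difference depends on the limit.

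The reads of each library were scaled by the median of ratios, as the deposited values are, before they were divided. A name was called when it differed at least 2-fold and the exact 95% interval of its ratio left out 1. None of the 11 mirtron names was called, 0 lower and 0 higher in K562/ADM. Over all 934 names, 146 (15.6%) were called lower and 104 (11.1%) higher, so that 41.6% of the calls were higher. This balance depends on the scaling: under upper-quartile scaling, which raises every log2 ratio by 0.74, 95 names were called lower and 223 higher, or 70.1% of the calls, while the mirtron names called stayed at 0. For 6 of the 11 names no ratio is given, because both libraries had at most 3 reads. Such names could hardly be called: with 0 reads in the other library, at least 7 reads in K562 or 5 reads in K562/ADM would be needed. Among all names with 1 to 9 reads together, 3.64% were called in either direction.

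MiR-877 had the narrowest interval of the mirtron names. Its ratio of K562/ADM to K562 was 1.096 (95% interval 0.930 to 1.29), so under this scaling a 2-fold difference in either direction lay outside the interval. It would have been called lower at 128 reads or fewer in K562/ADM, and higher at 513 reads or more. Under upper-quartile scaling its ratio was 1.83 (1.56 to 2.16), an interval that left out 1 and held 2-fold, and under total-count scaling it was 0.996 (0.845 to 1.17). Among all names with at least 100 but under 1000 reads together, as miR-877 has, 41.8% were called in either direction, or 30.8% when the names of the imprinted domain at 14q32 were left out.

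The other 4 ratios were below 1 with intervals that held 1. MiR-1226 had a ratio of 0.510 (0.141 to 1.56) and miR-1226* of 0.668 (0.203 to 1.97). MiR-877* had a ratio of 0.645 (0.268 to 1.46) and miR-1236 of 0.918 (0.135 to 5.43). These intervals are wide and hold both equality and a fall of more than 2-fold. Among all names with at least 10 but under 100 reads together, where 3 of these 4 lie, 41.9% were called. All of these ratios except that of miR-1226 exceeded 1 under upper-quartile scaling.

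**Figure D3:**
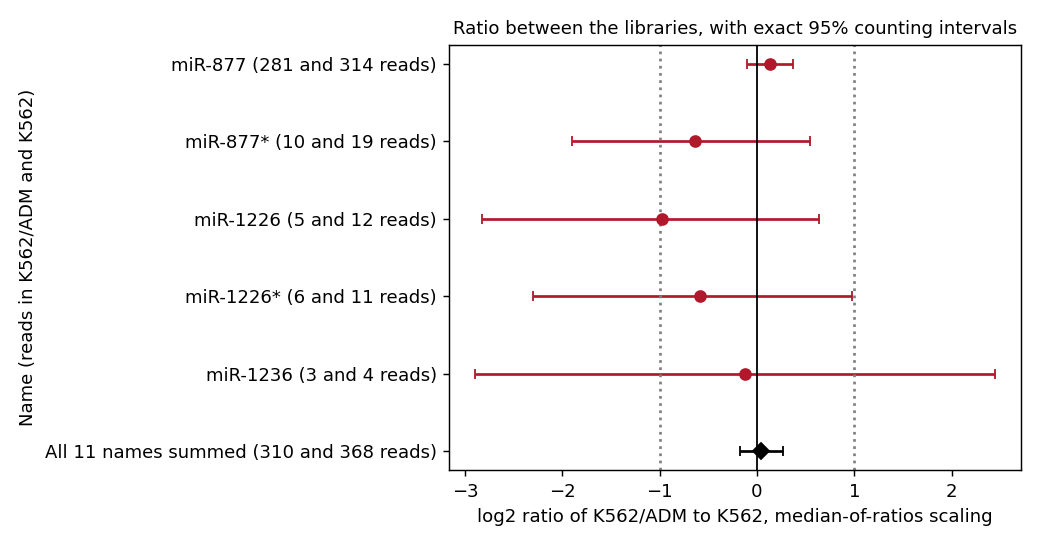
Log2 ratio of K562/ADM to K562 (x axis) for the 5 mirtron names with more than 3 reads in at least 1 library, and for the sum of all 11 names (black diamond). Bars are exact 95% counting intervals, a solid line marks a ratio of 1 and dotted lines mark 2-fold differences. Under the median-of-ratios scaling shown, each interval includes 0 and those of miR-877 and of the sum lie within the dotted lines, while under upper-quartile scaling both leave out 0 and reach past a 2-fold difference.

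Summed over the 11 names, the mirtrons had 310 reads in K562/ADM and 368 reads in K562, or 44.96 and 47.93 RPM. The ratio of the sums was 1.03 (0.884 to 1.20), and miR-877 gave most of the reads. Under upper-quartile scaling the ratio was 1.73 (1.48 to 2.01), which left out 1 and held 2-fold. Without miR-877 and miR-877* the other 9 names had 19 reads in K562/ADM and 35 reads in K562, a ratio of 0.665 (0.359 to 1.19). The median log2 ratio of the 4 names with at least 10 reads together was -0.61, against -0.05 over all names. Under upper-quartile scaling it was 0.14, against 0.69 over all names. Its sign thus depends on the scaling, which shifts all names alike, while it lay below the median of all names under both scalings. Called by 2-fold alone, without the interval, 3 names were lower (miR-1228, miR-1237 and mir-1229*) and 2 higher (miR-1224-5p and miR-1228*). The same rule called 29.4% of all names lower and 25.3% higher, and each of the 5 mirtron names had at most 3 reads in a library.

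Both arms were listed for miR-877, miR-1226 and miR-1228, and the balance between them does not depend on the scaling of the libraries. In miR-877 the 5p arm dominated, with 281 of 291 reads in K562/ADM (96.6%, 95% interval 93.8 to 98.3, Clopper-Pearson) and 314 of 333 reads in K562 (94.3%, 91.2 to 96.5). This is 28.1 reads of the 5p arm for each read of the 3p arm in K562/ADM and 16.5 in K562, an odds ratio of 1.699 with an exact 95% interval of 0.737 to 4.16. A difference in arm use was not detectable at this depth. In miR-1226 neither arm dominated. The 5p arm, miR-1226*, had 6 of 11 reads in K562/ADM (54.5%, 23.4 to 83.3) and 11 of 23 reads in K562 (47.8%, 26.8 to 69.4), with an odds ratio of 1.30 (0.247 to 7.12). The 2 introns therefore differed from each other in arm use in both libraries, with intervals that did not overlap. MiR-1228 had 3 reads in all, 1 of the 5p arm in K562/ADM and 2 of the 3p arm in K562, too few to compare.

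Set against the 92 other hairpins listed under a name with and without an asterisk and with at least 10 reads in each library, the strand shares of both mirtrons fell inside the range. The asterisk strand of miR-877 held 3.44% of its reads in K562/ADM and 5.71% in K562, where the medians of the other hairpins were 2.03% and 2.90%. A higher share than that of miR-877 was found for 39 of the 92 in K562/ADM and for 35 in K562. For miR-1226 the asterisk strand held 54.5% in K562/ADM and 47.8% in K562, and 9 and 13 of the 92 had a higher share. The asterisk share was lower in K562/ADM than in K562 for 64 of the 92 others. It was also lower for miR-877 but higher for miR-1226, and for both mirtrons the interval of the arm odds ratio held 1.

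**Figure D4:**
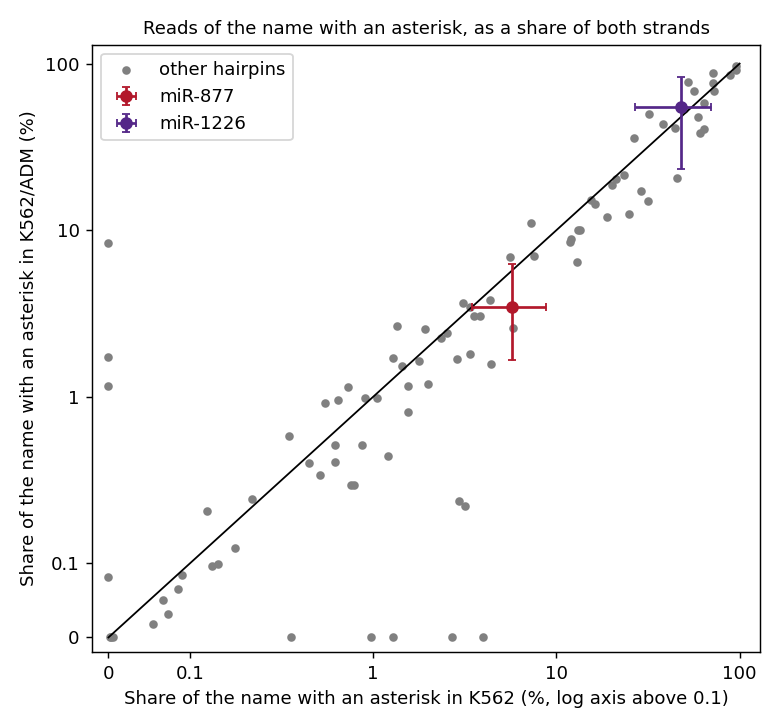
Share of the reads of a hairpin that fell on the name with an asterisk, in K562/ADM (y axis) and K562 (x axis), in percent on log scales that are linear below 0.1. Grey points are the 92 other hairpins with at least 10 reads in each library, red is miR-877 and violet is miR-1226 with exact 95% intervals, and the line marks equal shares. MiR-877 lies at 3.44% and 5.71%, and miR-1226 at 54.5% and 47.8%.

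Names listed as capped hairpins, and miRs catalogued alongside most of the mirtrons, were set beside them. The precursors of capped hairpins are transcribed directly and exported without Drosha cutting. All names of the miR-320 family and miR-484 were listed as such by name alone, and how each was made was not measured. There were 7 of these names, all with reads in both libraries, and 1 was called lower and 3 higher. Among them miR-320a had 6452 reads in K562/ADM and 7041 in K562, a ratio of 1.12 (1.08 to 1.16), and miR-484, with 1007 reads in K562/ADM and 1530 in K562, stood at 0.806 (0.744 to 0.873). MiR-320b, with 546 reads in K562/ADM and 277 in K562, was 2.41-fold higher (2.09 to 2.80). The 70 other names of the miR-12xx series included 9 called lower and 6 called higher. The calls of both lists are those under median-of-ratios scaling, where 15.6% of all names were called lower and 11.1% higher. The most abundant of the 70 names were miR-1246 with a ratio of 6.02 (5.94 to 6.10), miR-1285 with 0.546 (0.511 to 0.583) and miR-1260b with 2.22 (2.07 to 2.38). These lists hold more reads than the mirtrons, and a difference between the lists was not tested. MiR-3620, the other listed name whose hairpin spans a short intron, had 1 read in K562/ADM and 0 reads in K562.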

How the data were processed

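Small RNA of K562/ADM and K562 cells was sequenced on an Illumina Genome Analyzer IIx, 1 library each. The authors collapsed the reads to unique sequences, dropped those seen only once, and mapped them with Bowtie in miRanalyzer to miRBase 16. CASAVA 1.7.0 and hg18 are further entries in the submitters' processing notes. Each deposited signal value is a name's reads after division by a DESeq size factor. Other deposited columns hold the authors' fold changes and p-values and were not used. Names with 1 read are nonetheless listed, so how the omission acted on names with few reads is unknown.

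The smallest value above 0 in a column was taken as 1 read, which gave whole reads throughout (100% within 0.001), and the recomputed median-of-ratios factors equalled the deposited ones. Exact binomial intervals (95%) were used for ratios and shares. A count model could not be fitted with 1 library per line, so no p-value was computed. The procedure was tested on simulated counts with Poisson noise. Changes well above the 2-fold limit were planted, only in names with more reads than most mirtron names. Whether a change in scarcer names would be found was not tested. Alternatives were other scalings (total counts, with and without miR-378, TMM, upper quartile, without 14q32, miR-425), call rules, read minimums, summed arms and 1 added to scaled values. Arms of older names were taken from knowledge of miRBase naming, since the table gives none. Hairpins were placed in GENCODE introns by symbol (805 of 934 names matched), and all 10 member hairpins had RefSeq sequences. All members are named, with the 3 most abundant names of each comparison list. Members and lists were chosen with earlier results of these data known. Python 3.11.15, scipy 1.17.1, R 4.3.3 and edgeR 4.0.16 (scaling factors) were used.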

Additional observations from a re-analysis of the deposited data

How the results depend on the processing

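The mirtron names called stayed at 0 lower and 0 higher under all 6 other scalings and with summed arms. Under upper-quartile scaling the interval of miR-877 left out 1 (ratio 1.83, 1.56 to 2.16), so only the 2-fold limit kept it from a call. A limit of 1.5-fold, a whole interval past 2-fold, read minimums of 10 and 50 and 1 added to the scaled values also gave 0. These settings kept the main scaling, where every interval held 1, so they could not have given a call. Calls by 2-fold alone gave 3 lower and 2 higher, all with at most 3 reads in a library. The ratio of summed reads, 1.03, was 1.73 under upper-quartile scaling and 0.658 without miR-877, and lay between 0.938 and 1.03 under the other scalings. The log2 ratio of miR-877 was 0.88 under upper-quartile scaling and ran from -0.01 to 0.13 under the others. The median log2 ratio, -0.61, was 0.14 under upper-quartile scaling, where that of all names was 0.69. It was 0.13 with at least 50 reads, which leaves miR-877 alone. With at least 3 reads 6 names were detected in K562/ADM and 5 in K562, and with at least 10 reads 2 and 4. Depth limits these comparisons, since 7 of 11 names had under 10 reads together. No paired analysis was possible because there is 1 library of each line.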
